A study of Mus musculus with 12 samples.

Results

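The genes described here are 51 genes of DNA replication and S phase, among the 55487 genes of the count table. They were chosen by gene symbol, and each symbol matched 1 row. RNA was sequenced from Min6 cells, a beta cell line from a mouse insulinoma whose founder animals carried a viral large T antigen under the insulin promoter. Cells were kept for 48 h in 1 µM AS1842856 with 5 µM loperamide (FoxOi_Loperamide), in 1 µM AS1842856 alone (FoxOi), in 5 µM loperamide alone (Loperamide) or in DMSO, the solvent, and each of the 4 groups had 3 libraries. AS1842856 is an inhibitor of the transcription factor FoxO1, and loperamide is an opioid receptor agonist. The labels do not say whether libraries of a group came from separate cultures, so p-values measure the spread between these libraries, which may be technical.

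Before S phase, the origin recognition complex, Cdc6 and Cdt1 load the Mcm2 to Mcm7 helicase onto DNA, a step called licensing. At the start of S phase, Cdc45 and the GINS complex join the helicase, DNA polymerase alpha with primase starts new strands, and polymerases delta and epsilon extend them on the sliding clamp Pcna. Many of these genes are transcribed at the border of G1 and S phase under E2F factors, which the retinoblastoma protein holds back until cyclin E and its kinase act. The viral large T antigen binds the retinoblastoma protein. Adult beta cells divide rarely, whereas lines such as Min6 grow continuously.

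All 51 genes passed the filter on low counts, the lowest with 76 counts in a library, and together they took 0.410% to 0.538% of the counts of a library. Total counts ran from 10640485 (Loperamide replicate 1) to 19499216 (FoxOi replicate 3). The summed level of 8 beta cell markers was 27860 to 32820 CPM (counts in each 1000000 of a library, scaled by TMM) in FoxOi_Loperamide, 35540 to 40250 in FoxOi, 64150 to 64570 in Loperamide and 61710 to 85390 in DMSO libraries. The 4 acinar markers summed to at most 0.327 CPM, with Cpa1 and Prss2 at 0, and the 5 fibroblast markers to at most 4.31 CPM, with Col3a1 at 0. The 5 leukocyte markers summed to 7.25 to 7.62 CPM in FoxOi_Loperamide, 21.5 to 22.7 in FoxOi, 4.26 to 4.67 in Loperamide and 4.48 to 6.01 in DMSO libraries. Most of that difference was Cd68, with 71 to 83 counts in FoxOi_Loperamide, 303 to 349 in FoxOi, 11 to 18 in Loperamide and 22 to 43 in DMSO libraries, while Ptprc and Adgre1 had at most 2 counts in a library. The 4 alpha cell markers summed to 865 to 1187 CPM in FoxOi_Loperamide, 1816 to 2445 in FoxOi, 394 to 722 in Loperamide and 2614 to 3834 in DMSO libraries. The 2 delta cell markers summed to 8.31 to 17.1, 51.3 to 142, 6.47 to 15.9 and 36.3 to 75.1 CPM in the same groups, and the 4 ductal markers to 117.8 to 170.2, 314 to 366, 166 to 226 and 254 to 344 CPM. The 3 endothelial markers reached at most 1.49 CPM. The part of these differences in the results was not tested. These are bulk samples, so fewer cells in S phase and less RNA of a gene per cell cannot be told apart.

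Levels are compared between genes in the authors' FPKM values, which divide by gene length. In the DMSO libraries the highest mean was that of Pcna, at 215 ± 22.3 FPKM (SD, n = 3), followed by the helicase subunit Mcm2 at 87.95 ± 5.00 FPKM, the flap endonuclease Fen1 at 80.7 ± 8.45 FPKM, the helicase subunit Mcm5 at 72.6 ± 6.32 FPKM and the ribonucleotide reductase subunit Rrm2 at 66.2 ± 5.09 FPKM. The lowest were Orc1, the largest subunit of the origin recognition complex, at 3.31 ± 0.364 FPKM, the firing factor Mcm10 at 6.77 ± 0.672 FPKM and the transcription factor E2f2 at 8.21 ± 0.388 FPKM. Median DMSO levels by role were 54.3 FPKM for the 11 licensing genes, 45.0 for the 5 nucleotide genes, 37.1 for the 5 genes of single-strand binding and Okazaki fragments, 30.3 for the 4 chromatin genes and 29.8 for the 6 genes of the clamp and its loader. They were 18.9 FPKM for the 9 polymerase and primase genes, 17.4 for the 5 regulators of S phase entry and 9.36 for the 6 origin firing genes. Of the 51 genes, 9 overlap, on the opposite strand, a gene with at least 10% of their own counts (Ccne2, Cdc45, Chaf1a, Fen1, Gins2, Mcm7, Orc6, Rfc4 and Rfc5). The largest neighbour had 761% of the counts of Gins2, 595% of Rfc4, 469% of Orc6, 383% of Rfc5 and 113% of Cdc45. For the others of the 9 it had 32.1% to 84.7%. The strand setting of the counting is not given in the sources used here, so for these genes reads of the neighbour may be included. Pcna has a processed pseudogene, Pcna-ps2, that was counted separately and held 11.5% of the counts of Pcna.

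Promoter windows were read from RefSeq (GRCm38.p6), each from 250 bases before to 50 bases after a RefSeq start, and 42 of the 51 genes had an entry. That start can differ from the gene positions given below. The window of Cdc6, for one, lies wholly within the positions given for that gene. An E2F site was searched as TTTCCCGC, TTTGGCGC, TTTCGCGC or TTTGCCGC on both strands, and 16 of the 42 genes (38.1%) held at least 1 match, against 2.60% of the 27025 genes in the table. The CCAAT box was found in 61.9% of the 42 genes and in 41.1% of all genes, and the GC box GGGCGG in 81.0% and 38.2%. The cell cycle homology region TTTGAA was found in 16.7% of the 42 genes and in 20.2% of all genes, and TATAAA in 7.14% and 15.7%. The windows below are a selection, of 5 called genes that held an E2F match and of Rrm2. Mcm10, E2f8, Chaf1b and Tk1 had windows without an E2F match, which are not shown. Capitals mark the E2F matches in the first 5, and the CCAAT box in Rrm2, whose window held no E2F match. A match is a description of the letters, not a site shown to be bound. The 27025 genes include some that did not pass the filter on low counts, and shares among genes that passed it were not counted.
Orc1, chr4:108579204-108579503, plus strand: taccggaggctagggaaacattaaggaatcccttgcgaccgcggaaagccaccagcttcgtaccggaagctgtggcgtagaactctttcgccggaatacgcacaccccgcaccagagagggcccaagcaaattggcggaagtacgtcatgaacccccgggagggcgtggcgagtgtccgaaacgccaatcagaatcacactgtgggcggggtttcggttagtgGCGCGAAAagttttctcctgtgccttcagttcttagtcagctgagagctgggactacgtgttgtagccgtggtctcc
Cdc6, chr11:98907901-98908200, plus strand: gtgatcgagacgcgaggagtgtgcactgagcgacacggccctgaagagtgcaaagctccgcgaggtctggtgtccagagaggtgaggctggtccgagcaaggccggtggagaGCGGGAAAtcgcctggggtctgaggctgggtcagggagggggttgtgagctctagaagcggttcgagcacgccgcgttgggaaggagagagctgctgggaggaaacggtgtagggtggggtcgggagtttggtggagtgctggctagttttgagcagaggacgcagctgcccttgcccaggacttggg
Gins3, chr8:95633309-95633608, plus strand: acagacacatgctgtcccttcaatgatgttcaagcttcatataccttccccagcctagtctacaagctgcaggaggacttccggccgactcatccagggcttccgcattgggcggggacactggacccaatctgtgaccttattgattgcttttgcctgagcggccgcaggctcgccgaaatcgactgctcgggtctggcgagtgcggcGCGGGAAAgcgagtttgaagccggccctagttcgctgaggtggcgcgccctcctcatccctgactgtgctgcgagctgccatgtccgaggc
Mcm6, chr1:128359656-128359955, minus strand: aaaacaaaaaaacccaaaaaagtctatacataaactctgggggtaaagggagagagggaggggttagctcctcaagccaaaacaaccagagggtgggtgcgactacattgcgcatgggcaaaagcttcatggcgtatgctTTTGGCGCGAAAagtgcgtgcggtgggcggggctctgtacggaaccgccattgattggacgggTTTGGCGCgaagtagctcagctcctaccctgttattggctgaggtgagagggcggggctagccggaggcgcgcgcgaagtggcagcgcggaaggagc
Pole2, chr12:69228141-69228440, minus strand: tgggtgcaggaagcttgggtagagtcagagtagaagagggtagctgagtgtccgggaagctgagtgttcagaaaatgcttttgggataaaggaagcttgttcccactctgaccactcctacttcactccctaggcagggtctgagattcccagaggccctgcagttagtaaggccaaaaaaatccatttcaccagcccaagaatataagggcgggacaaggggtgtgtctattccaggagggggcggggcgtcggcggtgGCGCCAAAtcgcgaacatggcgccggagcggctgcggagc
Rrm2, chr12:24708004-24708303, plus strand: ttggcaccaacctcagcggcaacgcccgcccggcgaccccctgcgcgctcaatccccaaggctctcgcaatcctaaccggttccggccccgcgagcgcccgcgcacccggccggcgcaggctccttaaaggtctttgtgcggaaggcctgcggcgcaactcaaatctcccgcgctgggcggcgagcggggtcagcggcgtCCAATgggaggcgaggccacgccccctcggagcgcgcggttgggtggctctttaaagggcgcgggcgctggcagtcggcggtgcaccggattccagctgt
Counted from the RefSeq start, the Orc1 match lies 27 bases before it and the Gins3 match 41 bases before it. These 2 genes were higher with FoxOi. The Mcm6 window held 3 matches that start 110, 106 and 47 bases before the RefSeq start, and the first 2 overlap. Mcm6 and Pole2, whose match starts 11 bases after the RefSeq start, were lower with FoxOi. Of the genes with a window, 2 of 5 higher, 3 of 4 lower and 11 of 33 not called with FoxOi held a match. With Loperamide a match was found in Pole2, the only gene called higher, in 5 of 16 lower genes and in 10 of 25 not called.

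Each treatment was compared with DMSO with edgeR's quasi-likelihood test, with a call where p, adjusted by Benjamini-Hochberg over the 16808 genes tested, was under 0.05. Log2 fold changes are of the treated over the DMSO libraries and carry their standard error (SE). The 3 comparisons share the DMSO libraries. In all, 31 of the 51 genes (60.8%) were called in at least 1 of them, against 65.1% of all genes tested.

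With FoxOi a small group of the genes rose and most were not called, in the fit that does not use the replicate numbers. A fit that uses them, given below, called more of the genes, and more of them lower than higher. Of the 51 genes, 6 were higher, against 20.7% of all genes tested, and 4 lower, against 20.3%. Orc1 rose 1.99-fold, Chaf1b, a subunit of the chromatin assembly factor CAF-1, rose 1.84-fold, and E2f8, a repressor of the E2F family, rose 1.55-fold. Pole, the catalytic subunit of polymerase epsilon, Gins3 and Mcm10 were higher as well, while Rpa3, Pole2, E2f2 and Mcm6 were lower. The median log2 fold change of the 51 genes was -0.03, against 0.01 over all genes tested. With the replicate number as a further term in the fit, here called the replicate block, 10 were higher and 16 lower, against 29.0% and 27.1% of all genes. The count of lower genes was 2 without DMSO replicate 2, 10 without DMSO replicate 3, 1 without FoxOi replicate 3 and 2 without FoxOi_Loperamide replicate 3.

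With Loperamide 18 of the 51 genes were lower, against 15.8% of all genes tested, and 1 was higher, against 16.1%. The fall was largest in Rrm2, to 0.338 of its DMSO level, followed by Cdc6, which loads the helicase, Tyms, the thymidylate synthase, Pold2, a subunit of polymerase delta, and Mcm10. Pole2, the second subunit of polymerase epsilon, was the gene that rose. The median log2 fold change of the 51 genes was -0.24, against 0.02 over all genes tested. With the replicate block 27 were lower and 5 higher, against 22.9% and 25.8% of all genes. The count of higher genes was 0 without DMSO replicate 1 or Loperamide replicate 2 and 2 without FoxOi_Loperamide replicate 1.

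The combination gave changes in both directions, with 9 of the 51 genes higher than in DMSO, against 22.3% of all genes tested, and 11 lower, against 23.2%. E2f8 at 2.01-fold, Chaf1b at 1.89-fold, Pole at 1.65-fold and Orc1 at 1.53-fold led the genes that rose. Rrm2 at 0.416 and Cdc6 at 0.537 of the DMSO level led those that fell. The median log2 fold change was -0.01, against 0.01 over all genes tested. With the replicate block 13 were higher and 17 lower, against 29.7% and 29.3% of all genes, and without DMSO replicate 2 the count of lower genes was 7.

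**Figure D1:**
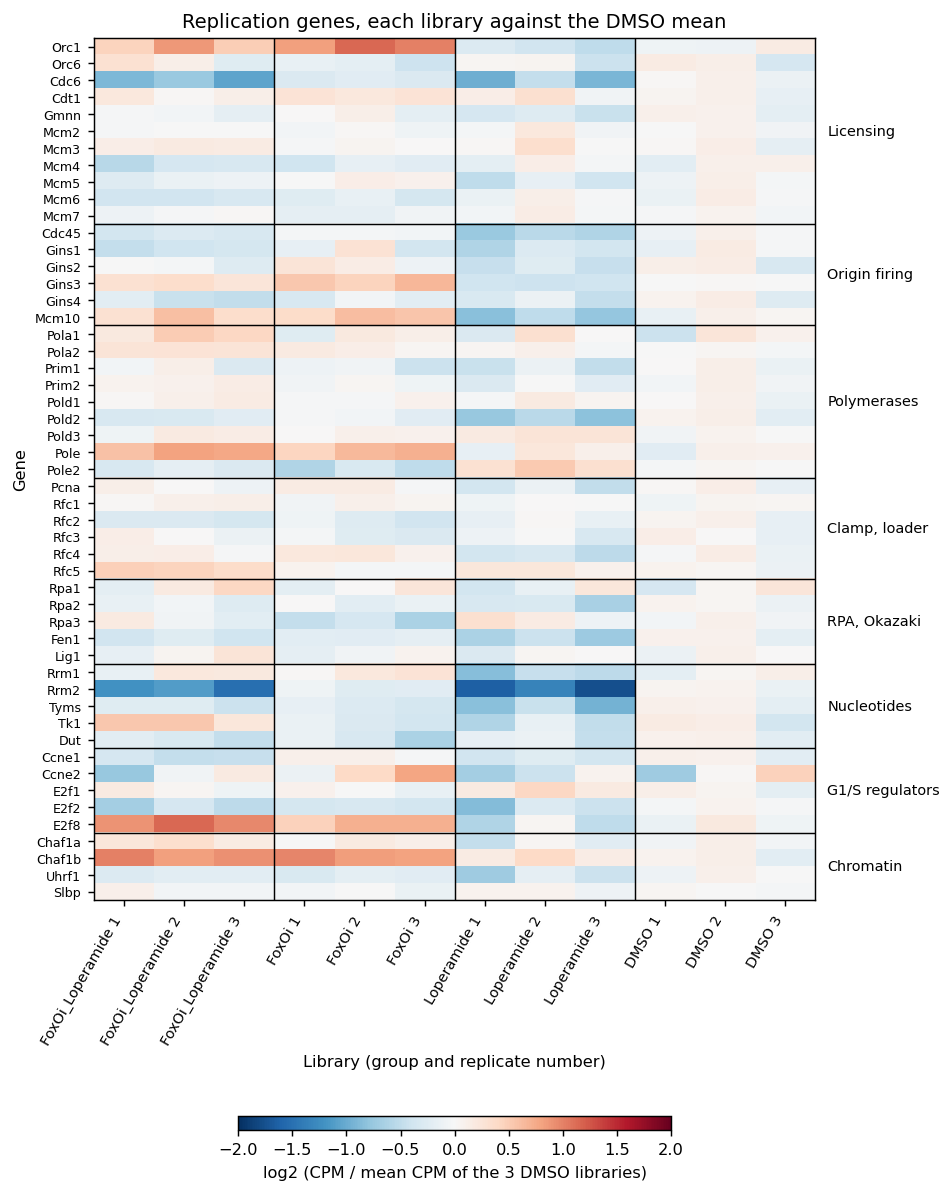
Levels of the 51 genes, grouped by role, in each of the 12 libraries. Colour is the log2 ratio of the CPM value of a library to the mean of the 3 DMSO libraries (red higher, blue lower). The dark blue row is Rrm2, low in the 3 FoxOi_Loperamide and the 3 Loperamide libraries, and the red rows are Orc1, Pole, E2f8 and Chaf1b in the FoxOi_Loperamide and FoxOi libraries.

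Scaling by total counts in place of TMM moved the median log2 fold change of all genes to 0.17 for the combination, 0.11 for FoxOi and 0.12 for Loperamide, and changes are given here relative to the TMM scale. Under that scaling 17 of the 51 genes were higher and 4 lower with the combination, 9 and 2 with FoxOi, and 5 and 13 with Loperamide. Shares of all genes called under that scaling were not counted. The calls then lost were those of E2f2 and Mcm6 with FoxOi, of Ccne1, Gins2, Gmnn, Mcm5 and Pcna with Loperamide, and of Cdc45, Fen1, Gins4, Mcm4, Mcm6, Pold2 and Rfc2 with the combination. Further calls lost under it were Orc1, Cdc45 and Gins3 for the combination against FoxOi, Mcm4 for the combination against Loperamide, Mcm6 for FoxOi against Loperamide, and Mcm10 and Pold2 in the interaction.

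Among the licensing genes Orc1 and Cdc6 moved most, and the helicase subunits did not move together. Orc1 (ENSMUSG00000028587, GRCm38 chromosome 4, 108579423 to 108614833) had 4.55, 6.01 and 4.60 FPKM in FoxOi_Loperamide, 5.77, 7.28 and 6.51 FPKM in FoxOi, 2.73, 2.54 and 2.31 FPKM in Loperamide and 3.09, 3.10 and 3.73 FPKM in DMSO libraries. Every library with the inhibitor lay above every DMSO library, and the 3 Loperamide libraries lay below them. The log2 fold change was 0.61 ± 0.14 with the combination (adjusted p = 0.00241), 1.00 ± 0.14 with FoxOi (adjusted p = 4.66e-05) and -0.38 ± 0.15 with Loperamide (adjusted p = 0.0659, and 0.0189 with the replicate block). Cdc6 (chromosome 11, 98907801 to 98923940) had 6.37, 7.03 and 5.62 FPKM in FoxOi_Loperamide, 9.64, 9.99 and 9.46 FPKM in FoxOi, 5.98, 8.48 and 6.22 FPKM in Loperamide and 11.8, 12.7 and 10.9 FPKM in DMSO libraries. Both groups with loperamide lay below the FoxOi and the DMSO libraries and overlapped each other. Cdc6 fell by 0.90 ± 0.12 on the log2 scale with the combination and by 0.77 ± 0.12 with Loperamide, and with FoxOi it was at -0.27 ± 0.12 (adjusted p = 0.0887, and 0.00379 with the block).

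Of the helicase subunits, Mcm6 fell by 0.36 ± 0.09 with the combination (adjusted p = 0.00538) and by 0.25 ± 0.09 with FoxOi (adjusted p = 0.0433). The FoxOi call of Mcm6 was lost without DMSO replicate 2 (0.171), FoxOi replicate 1 (0.0624) or 3 (0.159), each FoxOi_Loperamide replicate (0.0514 to 0.0573) or Loperamide replicate 3 (0.0526). Mcm4 fell by 0.40 ± 0.11 with the combination (adjusted p = 0.00985) and had 29.6, 33.8 and 34.2 FPKM there, against 36.5, 46.0 and 46.0 FPKM in DMSO libraries, so the groups did not overlap. With FoxOi Mcm4 was at -0.26 ± 0.11 (adjusted p = 0.0743, and 0.000384 with the block). Mcm5 fell by 0.35 ± 0.10 with Loperamide, which did not hold without DMSO replicate 2 (adjusted p = 0.0584) or Loperamide replicate 1 (0.0606), and with the combination it was at -0.16 ± 0.10 (adjusted p = 0.191, and 0.021 with the block). Mcm2, Mcm3 and Mcm7 were called in none of the 6 pairwise comparisons, although with the replicate block Mcm3 was called with the combination (adjusted p = 0.0356). Mcm2 had 87.5, 86.8 and 87.3 FPKM in FoxOi_Loperamide, 84.5, 89.5 and 81.9 FPKM in FoxOi, 84.8, 102 and 83.4 FPKM in Loperamide and 86.2, 93.6 and 84.1 FPKM in DMSO libraries, with log2 fold changes of -0.01, -0.03 and 0.04 against DMSO. Gmnn, which encodes the Cdt1 inhibitor geminin, fell by 0.35 ± 0.11 with Loperamide (adjusted p = 0.0261). That call was lost without DMSO replicate 1 (0.0707) or 2 (0.0962) or Loperamide replicate 1 (0.0598) or 3 (0.101). Cdt1 and Orc6, a further subunit of the origin recognition complex, were not called in any pairwise comparison. With FoxOi Cdt1 was at 0.25 ± 0.10 (adjusted p = 0.0621, and 0.00464 with the block) and Orc6 at -0.25 ± 0.17 (adjusted p = 0.262, and 0.00322 with the block).

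Of the origin firing genes, 2 of 6 were higher and 2 lower with the combination, 2 were higher with FoxOi, and 4 were lower with Loperamide, beside the shares of all genes given above (22.3% higher and 23.2% lower, 20.7% higher, and 15.8% lower). Mcm10 (chromosome 2, 4989714 to 5012791) and Gins3 (chromosome 8, 95633453 to 95645060) were called higher with both inhibitor treatments and lower with Loperamide. Mcm10 had 8.43, 10.2 and 8.54 FPKM in FoxOi_Loperamide, 8.65, 10.3 and 9.76 FPKM in FoxOi, 3.78, 4.75 and 3.94 FPKM in Loperamide and 6.01, 7.29 and 6.99 FPKM in DMSO libraries. The libraries with the inhibitor lay above the DMSO libraries and the Loperamide libraries below, without overlap. The log2 fold changes of Mcm10 were 0.42 ± 0.12 with the combination (adjusted p = 0.00775), 0.52 ± 0.12 with FoxOi (adjusted p = 0.00234) and -0.69 ± 0.12 with Loperamide (adjusted p = 0.000518). Gins3 had 10.9, 11.0 and 10.2 FPKM in FoxOi_Loperamide, 12.5, 11.7 and 13.4 FPKM in FoxOi, 6.54, 6.48 and 6.56 FPKM in Loperamide and 8.503, 8.808 and 8.67 FPKM in DMSO libraries. The 4 groups of Gins3 did not overlap. Its log2 fold changes were 0.30 ± 0.09 (adjusted p = 0.0099, and 0.0556 without the filter on low counts), 0.55 ± 0.09 (adjusted p = 0.000124) and -0.40 ± 0.09 (adjusted p = 0.00316) in the same order. Gins4 was lower with the combination, at -0.38 ± 0.13 (adjusted p = 0.0303), a call lost when DMSO replicate 1 (0.0791) or 2 (0.147) or FoxOi_Loperamide replicate 2 (0.0925) or 3 (0.105) was left out. With Loperamide Gins4 was at -0.29 ± 0.13 (adjusted p = 0.115, and 0.023 with the block). Gins2 was, like Gins3, lower with Loperamide, at -0.39 ± 0.14 (adjusted p = 0.042). Leaving out any of 6 libraries ended that call (adjusted p up to 0.165, for DMSO replicate 2), as did limma on log2(FPKM + 1) (0.0654). Gins1 was not called, at -0.41 ± 0.16 with the combination (adjusted p = 0.0532, and 0.00784 with the block) and -0.41 ± 0.17 with Loperamide (adjusted p = 0.0767, and 0.0123 with the block). Cdc45 fell by 0.32 ± 0.08 with the combination and by 0.62 ± 0.08 with Loperamide, and was at -0.05 ± 0.08 with FoxOi (adjusted p = 0.692).

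Of the subunits of polymerase epsilon, Pole rose with FoxOi while Pole2 fell. Pole (chromosome 5, 110286306 to 110337474) had 12.9, 14.8 and 14.5 FPKM in FoxOi_Loperamide, 11.4, 13.3 and 13.7 FPKM in FoxOi, 7.586, 10.03 and 9.12 FPKM in Loperamide and 7.24, 9.23 and 9.11 FPKM in DMSO libraries. Pole2 (chromosome 12, 69201773 to 69228195) had 6.89, 7.56 and 6.93 FPKM in FoxOi_Loperamide, 5.59, 6.93 and 5.92 FPKM in FoxOi, 10.5, 12.2 and 10.58 FPKM in Loperamide and 8.23, 8.87 and 8.56 FPKM in DMSO libraries. Pole was above every DMSO library in the libraries with the inhibitor, where Pole2 was below them, and Pole2 was above them in the Loperamide libraries. Pole rose by 0.72 ± 0.12 on the log2 scale with the combination (adjusted p = 0.00018) and by 0.60 ± 0.12 with FoxOi (adjusted p = 0.000967). Pole2 fell by 0.46 ± 0.11 with FoxOi (adjusted p = 0.00395) and rose by 0.38 ± 0.11 with Loperamide (adjusted p = 0.0162), which did not hold without DMSO replicate 1 (0.0675) or Loperamide replicate 2 (0.0773) and without the filter on low counts (0.0602). With the combination Pole2 was at -0.26 ± 0.11 (adjusted p = 0.0671, and 0.0217 with the block). The ratio of Pole2 to Pole, chosen after the values were seen, was 0.508 ± 0.0282 in FoxOi_Loperamide, 0.481 ± 0.0441 in FoxOi, 1.26 ± 0.116 in Loperamide and 1.01 ± 0.108 in DMSO libraries (SD, n = 3 each). Each treatment gave p = 0.1 against DMSO in a two-sided exact permutation test, the smallest p that 3 libraries against 3 allow. For the groups with the inhibitor that p followed from the separation of Pole and Pole2 given above, so it is no separate support.

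Of the other polymerase genes, Pold2 fell by 0.70 ± 0.11 with Loperamide (adjusted p = 0.00016). With the combination Pold2 was lower by a smaller amount, -0.29 ± 0.10 (adjusted p = 0.0359), which did not hold without DMSO replicate 1 (0.0892) or 2 (0.172) and without FoxOi_Loperamide replicate 1 (0.0954), 2 (0.0919) or 3 (0.0543), as well as without the filter on low counts (0.0696). Pola2, the second subunit of polymerase alpha, rose by 0.27 ± 0.07 with the combination (adjusted p = 0.00872). Its catalytic partner Pola1 was at 0.38 ± 0.18 (adjusted p = 0.105, and 3.41e-05 with the block), and had 9.95, 12.3 and 11.5 FPKM in FoxOi_Loperamide, against 6.37, 10.3 and 9.27 FPKM in DMSO libraries. These Pola1 values overlap between the groups and were higher with the combination within each of the 3 replicate numbers. The primase subunits Prim1 and Prim2 and the delta subunits Pold1 and Pold3 were not called against DMSO. Prim1 was at -0.34 ± 0.13 with Loperamide (adjusted p = 0.0645, and 0.000117 with the block) and -0.19 ± 0.13 with FoxOi (adjusted p = 0.257, and 0.0106 with the block). Pold3 was at 0.23 ± 0.09 with Loperamide (adjusted p = 0.053, and 0.00435 with the block).

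Of the 6 genes of the clamp and its loader, 4 were called against DMSO, each with 1 of the 3 treatments. Of all genes tested, 65.1% were called in at least 1 of these 3 comparisons. Pcna (chromosome 2, 132249162 to 132253314) had 235, 215 and 198 FPKM in FoxOi_Loperamide, 238, 240 and 209 FPKM in FoxOi, 165, 198 and 152 FPKM in Loperamide and 216, 236 and 192 FPKM in DMSO libraries. All groups overlapped the DMSO libraries. Pcna was called lower with Loperamide at -0.32 ± 0.11 (adjusted p = 0.0345), which did not hold without DMSO replicate 1 (0.059) or 2 (0.146) or Loperamide replicate 1 (0.101) or 3 (0.145), and was at 0.01 ± 0.11 with the combination and 0.10 ± 0.11 with FoxOi. Among the 5 subunits of the loader RFC, Rfc4 fell by 0.40 ± 0.10 with Loperamide (adjusted p = 0.00601) and Rfc5 rose by 0.43 ± 0.08 with the combination (adjusted p = 0.000645). Rfc5 had 29.5, 28.6 and 26.9 FPKM in FoxOi_Loperamide, 22.1, 20.4 and 20.3 FPKM in FoxOi, 24.7, 24.6 and 22.2 FPKM in Loperamide and 21.9, 21.9 and 19.5 FPKM in DMSO libraries, so the combination lay above all other libraries. Rfc2 fell by 0.31 ± 0.10 with the combination (adjusted p = 0.0183), which did not hold without DMSO replicate 2 (0.104) or FoxOi_Loperamide replicate 3 (0.0632). Rfc1 and Rfc3 were not called in any pairwise comparison. With the block, FoxOi calls were added for Rfc2 (-0.23 ± 0.10, adjusted p = 0.0684, and 0.00357 with the block), Rfc3 (-0.19 ± 0.11, adjusted p = 0.193, and 0.023 with the block) and Rfc4 (0.18 ± 0.10, adjusted p = 0.16, and 0.0234 with the block), and a Loperamide call for Rfc5 (0.18 ± 0.08, adjusted p = 0.11, and 0.0162 with the block).

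Replication protein A binds single-stranded DNA as a trimer of Rpa1, Rpa2 and Rpa3, and its genes did not change alike. Rpa3 had 37.5, 31.2 and 28.2 FPKM in FoxOi_Loperamide, 23.4, 25.9 and 20.8 FPKM in FoxOi, 40.8, 36.7 and 30.1 FPKM in Loperamide and 31.3, 35.3 and 31.4 FPKM in DMSO libraries. It was lowest in the 3 FoxOi libraries and fell there by 0.47 ± 0.13 (adjusted p = 0.0103, and 0.0501 without FoxOi replicate 3). Rpa2 fell by 0.42 ± 0.11 with Loperamide (adjusted p = 0.00866), and Rpa1 was called in none of the 6 pairwise comparisons (adjusted p with the combination = 0.0224 with the block). Fen1, which cuts the flaps of Okazaki fragments, had 62.8, 67.8 and 60.9 FPKM in FoxOi_Loperamide, 69.6, 68.9 and 70.4 FPKM in FoxOi, 52.0, 60.1 and 48.2 FPKM in Loperamide and 84.5, 86.5 and 71.0 FPKM in DMSO libraries. In FPKM every treated library was below every DMSO library, whereas in TMM-scaled CPM the FoxOi libraries (168 to 174) overlapped the DMSO libraries (172 to 209). The fall was 0.34 ± 0.10 with the combination (adjusted p = 0.0108, and 0.0568 without DMSO replicate 2) and 0.59 ± 0.10 with Loperamide (adjusted p = 0.000363), and with FoxOi Fen1 was at -0.20 ± 0.10 (adjusted p = 0.115, and 0.0123 with the block). Lig1, the ligase that joins the fragments, was not called in any pairwise comparison.

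Of the 51 genes, Rrm2 had the largest fall with Loperamide and with the combination. Ribonucleotide reductase, which makes deoxyribonucleotides, is built from the large subunit Rrm1 and the small subunit Rrm2. Rrm2 (chromosome 12, 24708241 to 24714146) had 29.0, 30.5 and 23.1 FPKM in FoxOi_Loperamide, 61.7, 55.8 and 55.6 FPKM in FoxOi, 21.3, 26.2 and 19.5 FPKM in Loperamide and 68.4, 69.8 and 60.4 FPKM in DMSO libraries. The 6 libraries with loperamide lay between 19.5 and 30.5 FPKM, and the 6 without it between 55.6 and 69.8 FPKM. Rrm2 fell by 1.27 ± 0.12 on the log2 scale with the combination (adjusted p = 8.48e-07) and by 1.56 ± 0.12 with Loperamide (adjusted p = 4.52e-07), and with FoxOi it was at -0.19 ± 0.12 (adjusted p = 0.225, and 0.027 with the block). Rrm1 (chromosome 7, 102441695 to 102469771) had 49.7, 62.6 and 61.9 FPKM in FoxOi_Loperamide, 54.8, 62.5 and 64.8 FPKM in FoxOi, 30.1, 39.6 and 37.7 FPKM in Loperamide and 47.2, 56.5 and 59.5 FPKM in DMSO libraries. Rrm1 was low in the Loperamide libraries alone, with a fall of 0.60 ± 0.13 (adjusted p = 0.00219), and was at 0.10 ± 0.12 with the combination (adjusted p = 0.561) and 0.17 ± 0.12 with FoxOi (adjusted p = 0.296, and 0.00935 with the block). The ratio of Rrm2 to Rrm1 in FPKM, chosen after the values were seen, was 0.481 ± 0.105 in FoxOi_Loperamide, 0.959 ± 0.146 in FoxOi, 0.629 ± 0.1002 in Loperamide and 1.23 ± 0.218 in DMSO libraries (SD, n = 3 each). A two-sided exact permutation test against DMSO gave p = 0.1, 0.2 and 0.1 in that order, where 0.1 is the smallest p possible. That test did not use the replicate numbers. Within each number the FoxOi ratio (1.126, 0.8932 and 0.8585) was below the DMSO ratio (1.449, 1.237 and 1.014).

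Tyms, which makes thymidylate, fell by 0.73 ± 0.12 with Loperamide (adjusted p = 0.000458) and was at -0.30 ± 0.12 with the combination (adjusted p = 0.0549, and 0.000911 with the block), and at -0.26 ± 0.12 with FoxOi (adjusted p = 0.103, and 0.00395 with the block). Tk1, the thymidine kinase of S phase (chromosome 11, 117815526 to 117826092), had 58.8, 58.0 and 46.9 FPKM in FoxOi_Loperamide, 36.4, 32.7 and 30.6 FPKM in FoxOi, 26.2, 36.5 and 28.3 FPKM in Loperamide and 44.7, 44.4 and 31.4 FPKM in DMSO libraries. The combination was above every other library, while each single compound overlapped DMSO. Tk1 rose by 0.44 ± 0.15 with the combination (adjusted p = 0.0248), which did not hold without DMSO replicate 3 (0.112) or FoxOi_Loperamide replicate 1 (0.0761) or 2 (0.0822). With each compound alone Tk1 was not called, at -0.26 ± 0.15 with FoxOi (adjusted p = 0.174, and 0.0187 with the block) and -0.40 ± 0.15 with Loperamide (adjusted p = 0.0554, and 0.00127 with the block). Dut, the dUTPase that keeps uracil out of DNA, was not called and lay at -0.32 ± 0.13, -0.35 ± 0.13 and -0.24 ± 0.14 with the combination, FoxOi and Loperamide. With the block its adjusted p was 9.91e-05, 2.8e-05 and 0.00263.

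**Figure D2:**
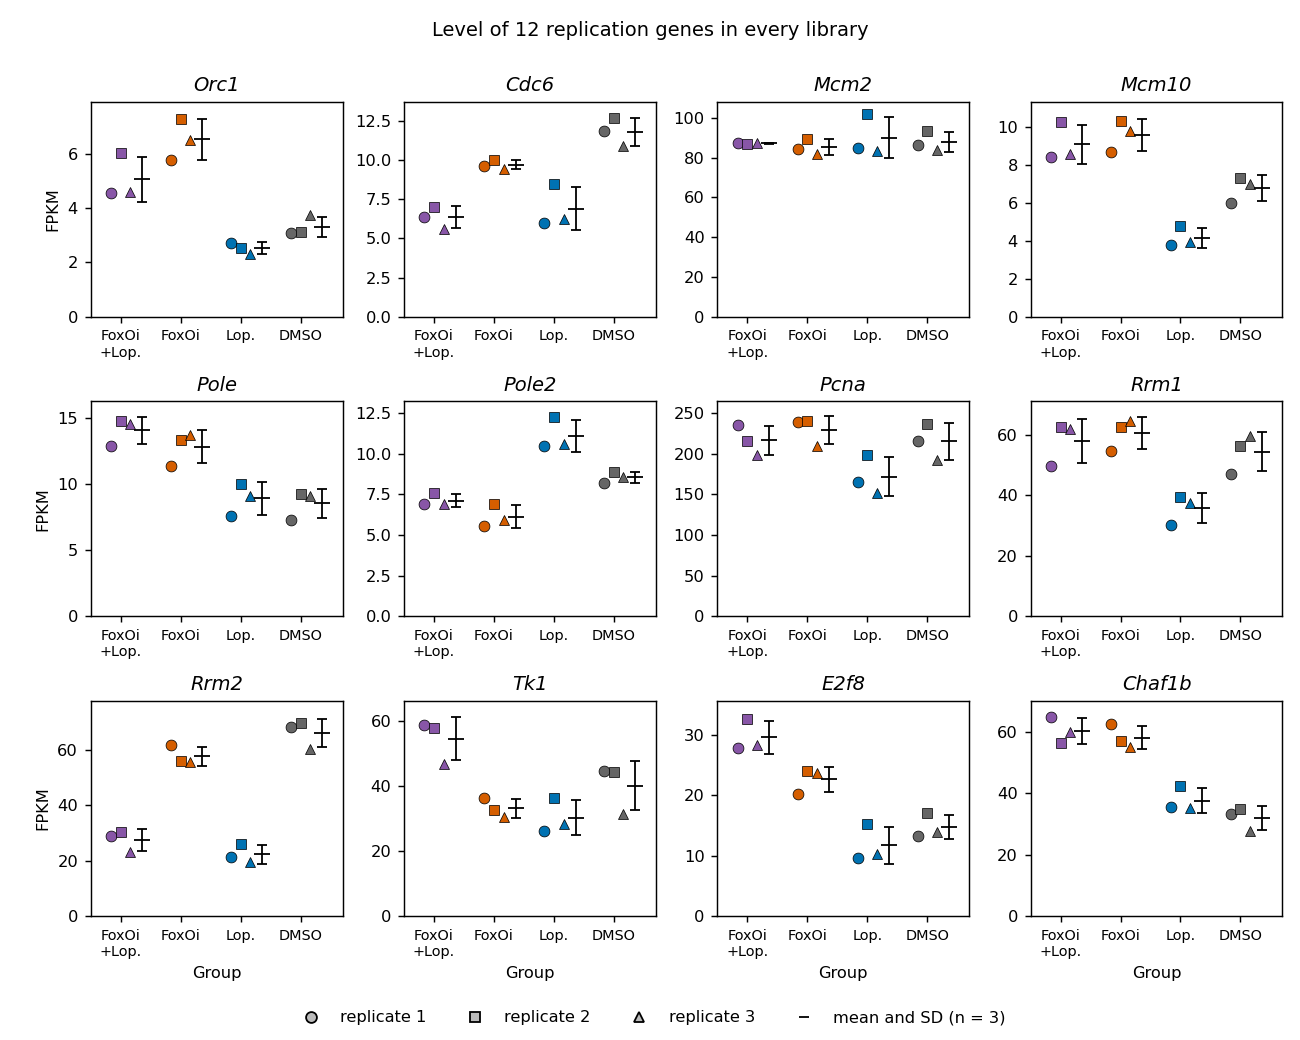
FPKM of 12 of the genes in each library, by group (FoxOi_Loperamide, FoxOi, Loperamide, DMSO), with the mean and SD of 3 libraries beside the points. Rrm2 lies between 19.5 and 30.5 FPKM in the 6 libraries with loperamide and between 55.6 and 69.8 FPKM in the others, while the groups of Mcm2 overlap.

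Regulators of S phase entry moved in both directions within families. E2f8 (chromosome 7, 48866429 to 48881596) had 27.8, 32.7 and 28.3 FPKM in FoxOi_Loperamide, 20.2, 24.1 and 23.6 FPKM in FoxOi, 9.61, 15.2 and 10.3 FPKM in Loperamide and 13.27, 16.99 and 13.9 FPKM in DMSO libraries. The combination was above the FoxOi libraries, which were above DMSO, and the Loperamide libraries overlapped DMSO. The rise was 1.01 ± 0.15 on the log2 scale with the combination (adjusted p = 8.62e-05) and 0.63 ± 0.15 with FoxOi (adjusted p = 0.00373), and with Loperamide E2f8 was at -0.33 ± 0.15 (adjusted p = 0.121, and 0.00117 with the block). E2f2, an activator of the family, was called lower in all 3 comparisons, at -0.51 ± 0.13 with the combination (adjusted p = 0.00515), -0.34 ± 0.13 with FoxOi (adjusted p = 0.0443) and -0.50 ± 0.13 with Loperamide (adjusted p = 0.00966). It had 5.17, 6.50 and 5.67 FPKM in FoxOi_Loperamide, 6.42, 6.54 and 6.29 FPKM in FoxOi, 4.46, 6.82 and 6.07 FPKM in Loperamide and 7.88, 8.64 and 8.13 FPKM in DMSO libraries, and all treated libraries lay below DMSO. The FoxOi call of E2f2 was lost without DMSO replicate 2 (0.107), each of the FoxOi replicates (0.0639 to 0.101), Loperamide replicate 3 (0.0506) or FoxOi_Loperamide replicate 3 (0.0543), and in limma on log2(FPKM + 1) (0.0602). E2f1, another activator, was not called against DMSO, at 0.05 ± 0.11, -0.02 ± 0.11 and 0.26 ± 0.11 with the combination, FoxOi and Loperamide. The last had an adjusted p of 0.0757, and of 0.00165 with the block.

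Cyclin E exists as Ccne1 and Ccne2. Ccne1 fell by 0.43 ± 0.09 with the combination (adjusted p = 0.00194) and by 0.33 ± 0.10 with Loperamide (adjusted p = 0.0165), and was at 0.06 ± 0.09 with FoxOi. The Loperamide call was lost without DMSO replicate 2 (0.0731) or Loperamide replicate 1 (0.0583) or 3 (0.0573). Ccne2 was the most variable of the 51 genes between replicate numbers, with 10.3, 16.5 and 19.4 FPKM in FoxOi_Loperamide, 15.9, 22.8 and 29.4 FPKM in FoxOi, 10.8, 12.89 and 18.03 FPKM in Loperamide and 10.5, 17.8 and 23.9 FPKM in DMSO libraries. Within a number it was highest in FoxOi each time, while across numbers the groups overlapped. It was not called, at 0.40 ± 0.33 with FoxOi (adjusted p = 0.364, and 2.8e-05 with the block) and -0.31 ± 0.34 with Loperamide (adjusted p = 0.533, and 0.00394 with the block).

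Of the chromatin genes, Chaf1b (chromosome 16, 93883901 to 93906115) rose while its partner in CAF-1, Chaf1a, was not called against DMSO. With the replicate block Chaf1a was called with the combination (0.24 ± 0.11, adjusted p = 0.097, and 0.0026 with the block) and with Loperamide (-0.20 ± 0.11, adjusted p = 0.193, and 0.0123 with the block). Chaf1b had 64.8, 56.2 and 59.98 FPKM in FoxOi_Loperamide, 62.4, 56.9 and 54.9 FPKM in FoxOi, 35.4, 42.2 and 35.0 FPKM in Loperamide and 33.2, 34.9 and 27.6 FPKM in DMSO libraries. The 6 libraries with the inhibitor were above all 6 without it. The rise was 0.92 ± 0.10 with the combination (adjusted p = 5.51e-06) and 0.88 ± 0.10 with FoxOi (adjusted p = 1.13e-05), and with Loperamide Chaf1b was at 0.24 ± 0.11 (adjusted p = 0.0955, and 0.0107 with the block). The ratio of Chaf1b to Chaf1a in FPKM, chosen after the values were seen, was 2.42 ± 0.277 in FoxOi_Loperamide, 2.60 ± 0.332 in FoxOi, 2.08 ± 0.237 in Loperamide and 1.51 ± 0.157 in DMSO libraries (SD, n = 3 each), with p = 0.1 for each against DMSO in a two-sided exact permutation test, the smallest possible. Uhrf1, which brings the maintenance methyltransferase to newly copied DNA, fell by 0.42 ± 0.11 with Loperamide (adjusted p = 0.00946). With the block Uhrf1 was also called lower with the combination (adjusted p = 0.00524, and 0.0982 without the block) and with FoxOi (0.00421). Slbp, which binds the stem-loop of histone mRNA, was not called in any pairwise comparison and was at -0.01, -0.06 and 0.01 with the combination, FoxOi and Loperamide. In all, 17 of the 51 genes (33.3%) were called in none of the 6 pairwise comparisons, against 26.4% of all genes tested. With the replicate block 12 of the 17 (70.6%), against 46.6% of all genes without a call, were called in at least 1 of the 5 comparisons whose numbers pair the samples, and Mcm2, Pold1, Rfc1, Lig1 and Slbp in none.

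**Figure D3:**
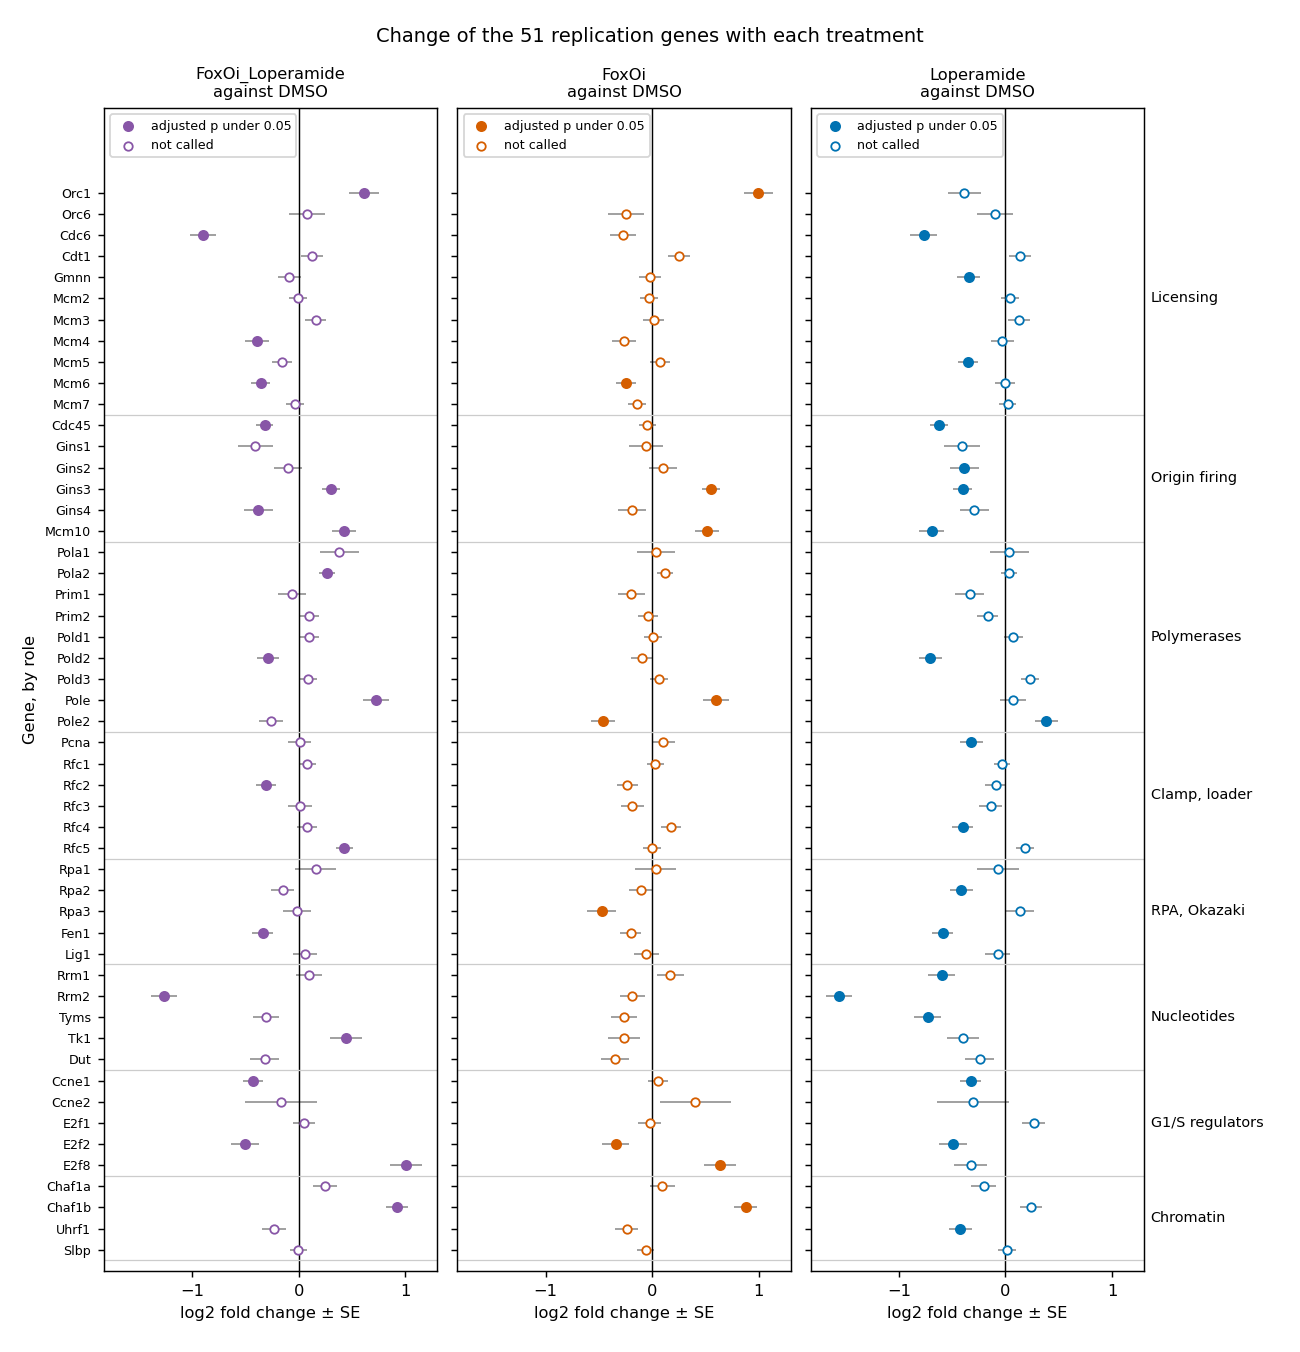
Log2 fold change ± SE of the 51 genes against DMSO with the combination, FoxOi and Loperamide, in order of role, with filled points for genes called at an adjusted p under 0.05. With Loperamide 18 genes are called lower and 1 higher, with FoxOi 4 lower and 6 higher, and with the combination 11 lower and 9 higher.

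The combination was compared with each compound alone to see what each adds to the other. Against FoxOi, the combination lowered 6 of the 51 genes, against 15.1% of all genes tested, and raised 3, against 11.5%. Rrm2 fell by 1.08 ± 0.12, Cdc6 by 0.63 ± 0.12 (adjusted p = 0.00155) and Ccne1 by 0.48 ± 0.09 (adjusted p = 0.00145), while Tk1 rose by 0.71 ± 0.15 (adjusted p = 0.00261) and Rfc5 by 0.43 ± 0.08 (adjusted p = 0.00127). Rpa3 rose by 0.46 ± 0.13, which did not hold without FoxOi replicate 3 (adjusted p = 0.0792) or FoxOi_Loperamide replicate 1 (0.0955). The remaining calls, Orc1 at -0.38 ± 0.13, Cdc45 at -0.27 ± 0.08 and Gins3 at -0.25 ± 0.08, had adjusted p of 0.0469, 0.0231 and 0.042. Of the 12 fits that each left out 1 library, Orc1 lost its call in 9 (adjusted p up to 0.188, without FoxOi replicate 2) and Gins3 in 11 (up to 0.159, without FoxOi replicate 3), while Cdc45 lost its call without FoxOi replicate 1 (0.0928) or 2 (0.0652) and without FoxOi_Loperamide replicate 1 (0.0807) or 3 (0.0627). With the replicate block 8 were higher and 11 lower, against 21.6% and 23.0% of all genes. The block added Orc6, Pola1, Pola2, Rfc3 and E2f8 above FoxOi and Mcm5, Gins1, Gins2, Pold2 and Ccne2 below it. Without the filter on low counts Orc1, Cdc45 and Gins3 were not called, and Orc1 was not called in DESeq2 or limma or with DESeq2 size factors. The count of lower genes was 3 without FoxOi_Loperamide replicate 1 or 3. Mcm2 was at 0.02 ± 0.08, Pcna at -0.10 ± 0.11, E2f1 at 0.07 ± 0.11 and Ccne2 at -0.57 ± 0.33 (adjusted p of Ccne2 = 0.241, and 4.74e-07 with the block). The median log2 fold change was 0.01, against 0.00 over all genes tested. Scaled by total counts, 4 were higher and 3 lower.

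Against Loperamide, the combination raised 17 of the 51 genes, against 18.4% of all genes tested, and lowered 3, against 20.5%. E2f8 rose by 1.33 ± 0.15 on the log2 scale (adjusted p = 1.2e-05), Mcm10 by 1.12 ± 0.12 (adjusted p = 5.46e-06), Orc1 by 1.00 ± 0.15 (adjusted p = 9.4e-05), Tk1 by 0.84 ± 0.15 (adjusted p = 0.000499), Gins3 by 0.70 ± 0.09 and Rrm1 by 0.69 ± 0.13 (adjusted p = 0.000537). Chaf1b, Pole, Rfc4, Chaf1a, Pold2, Cdc45, Prim2 and Pola2 rose by 0.24 to 0.68. The calls of Tyms at 0.42 ± 0.12, Pcna at 0.33 ± 0.11 and Rfc5 at 0.25 ± 0.08 depended on single libraries. Tyms was lost without Loperamide replicate 1 (0.0574) or 3 (0.0714), Pcna without FoxOi_Loperamide replicate 1 (0.0932) or 2 (0.0582) or Loperamide replicate 1 (0.0777) or 3 (0.113), and Rfc5 without FoxOi_Loperamide replicate 1 (0.0832) or 2 (0.0715) or Loperamide replicate 3 (0.112). The genes that fell were Pole2, by 0.65 ± 0.11 (adjusted p = 0.000358), Mcm6, by 0.35 ± 0.09 (adjusted p = 0.00751), and Mcm4, by 0.37 ± 0.11 (adjusted p = 0.0178), the last lost without FoxOi_Loperamide replicate 1 (0.0801) or Loperamide replicate 2 (0.0987). Prim2 lost its call without 5 of the 12 libraries (adjusted p up to 0.141, without Loperamide replicate 1) and Pola2 without FoxOi_Loperamide replicate 2 (0.0552) or Loperamide replicate 3 (0.0847), and without the filter on low counts Pola2, Prim2 and Rfc5 were not called. Rrm2 was at 0.30 ± 0.12 (adjusted p = 0.0656) and Cdc6 at -0.13 ± 0.13 (adjusted p = 0.449). Mcm2 was at -0.05 ± 0.08, Ccne1 at -0.10 ± 0.10, Ccne2 at 0.14 ± 0.34 and E2f1 at -0.22 ± 0.11, and none of these was called. The median log2 fold change was 0.19, against -0.01 over all genes tested.

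FoxOi was also compared with Loperamide directly. Of the 51 genes, 21 were higher with FoxOi, against 25.5% of all genes tested, and 4 lower, against 24.1%. Orc1 and Rrm2 were each 2.60-fold higher, Mcm10 2.31-fold, E2f8 1.94-fold, Gins3 1.93-fold and Rrm1 1.70-fold. Pole2 was lower by 0.85 ± 0.11 on the log2 scale (adjusted p = 1.98e-05) and Rpa3 by 0.61 ± 0.13 (adjusted p = 0.00159). E2f1 at -0.29 ± 0.11 and Mcm6 at -0.24 ± 0.09 had adjusted p of 0.0385 and 0.0422. E2f1 lost its call without FoxOi replicate 2 (0.0843) or 3 (0.145), Loperamide replicate 2 (0.18) or FoxOi_Loperamide replicate 2 (0.0522), and Mcm6 in 7 of the 12 fits that left out 1 library (up to 0.187, without Loperamide replicate 2). Pcna was 1.34-fold higher with FoxOi, Ccne1 was higher by 0.38 ± 0.09 on the log2 scale (adjusted p = 0.00362), Mcm2 was at -0.07 ± 0.08, and Ccne2 at 0.71 ± 0.34 (adjusted p = 0.103, and 9.79e-09 with the block). The call of Mcm6 was also lost without the filter on low counts. The block added Gins1, Ccne2 and Uhrf1 above Loperamide and Mcm4, Mcm7, Pold3 and Rfc5 below it. The count of lower genes was 8 with the replicate block, against 30.2% of all genes, and 2 without FoxOi replicate 3, Loperamide replicate 2 or FoxOi_Loperamide replicate 2. The median log2 fold change was 0.14, against 0.02 over all genes tested.

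The interaction takes the log2 fold change between the combination and FoxOi and subtracts that between Loperamide and DMSO, so a value of 0 means that the log2 effects add up. Of the 51 genes 4 were called above 0, against 3.66% of all genes tested, and 41 had a value above 0, with a median of 0.18 against -0.02 over all genes. Tk1 had the largest interaction at 1.11 ± 0.21 (adjusted p = 0.0037), a call kept in all 12 fits that left out 1 library. Loperamide moved Tk1 by 0.71 on the log2 scale in the presence of FoxOi and by -0.40 in its absence. Tyms at 0.69 ± 0.17 (adjusted p = 0.0214), Mcm10 at 0.60 ± 0.17 (adjusted p = 0.0325) and Pold2 at 0.52 ± 0.15 (adjusted p = 0.04) were called as well, and each fell with Loperamide and was not called between the combination and FoxOi. Tyms was lost in 6 of the 12 fits (adjusted p up to 0.0589), Mcm10 in 6 (up to 0.0893) and in limma, and Pold2 in 9 (up to 0.103). Accordingly the count was 1 without DMSO replicate 2, FoxOi replicate 3, Loperamide replicate 1 or 3 or FoxOi_Loperamide replicate 2, 2 without FoxOi replicate 2, 8 without Loperamide replicate 2 and 7 without DMSO replicate 3. Below 0, edgeR's quasi-likelihood test called 0 of the 51 genes, against 5.82% of all genes tested, as did DESeq2 and limma, and 0 had an unadjusted p under 0.05. Rrm2 was at 0.48 ± 0.17 (adjusted p = 0.0899), E2f8 at 0.70 ± 0.21 (adjusted p = 0.0537) and Orc1 at 0.00 ± 0.19. Mcm2 was at -0.02 ± 0.12, Pcna at 0.22 ± 0.15, Ccne1 at -0.16 ± 0.13, Ccne2 at -0.27 ± 0.47 and E2f1 at -0.19 ± 0.15.

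**Figure D4:**
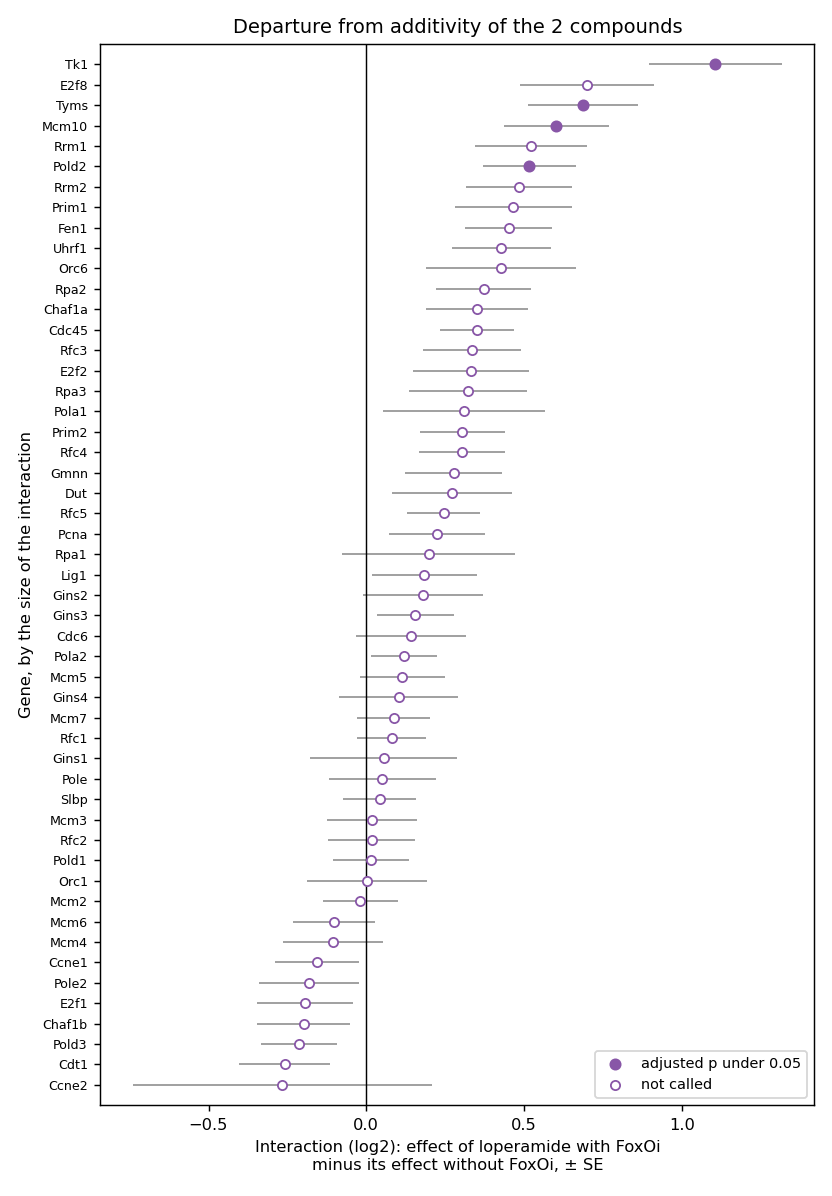
Interaction of the 2 compounds for the 51 genes on the log2 scale ± SE, ordered by size, with filled points for the 4 genes called at an adjusted p under 0.05. Of the 51 values, 41 lie above 0, and Tk1 stands highest at 1.11.

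Other genes of the pathway were taken from lists by function. Their counts stand beside the shares of all genes tested, 22.3% higher and 23.2% lower with the combination, 20.7% and 20.3% with FoxOi, and 16.1% and 15.8% with Loperamide. Of 27 further replisome genes, 8 were higher and 4 lower with the combination, 7 and 1 with FoxOi, and 3 and 5 with Loperamide. Recql4, a helicase that acts at origins, rose by 1.10 ± 0.12 with the combination and by 1.40 ± 0.12 with FoxOi. Timeless, of the fork protection complex, fell by 0.51 ± 0.10 and 0.64 ± 0.11 in the same comparisons, and Pold4, a small subunit of polymerase delta, fell by 0.69 ± 0.15 with Loperamide. Of 22 further S phase genes, 4 were higher and 5 lower with the combination, 5 and 3 with FoxOi, and 1 and 9 with Loperamide. Cdc25a, the phosphatase that activates the cyclin E kinase, fell by 0.43 ± 0.08 with the combination and by 0.65 ± 0.08 with Loperamide. Of 9 genes of the E2F and retinoblastoma families, 3 were higher and 2 lower with the combination, 2 and 2 with FoxOi, and 2 and 1 with Loperamide. Tfdp2, a partner of E2F factors, was at -0.92 ± 0.10 with the combination, -1.19 ± 0.10 with FoxOi and 0.66 ± 0.09 with Loperamide, and E2f3 rose by 0.56 ± 0.11 with the combination and by 0.71 ± 0.11 with FoxOi. Of 5 tested genes of nucleotide supply outside S phase, Dguok fell by 0.58 ± 0.15 with FoxOi and Tk2 rose by 0.42 ± 0.12 with Loperamide, both kinases of mitochondria, and the other 3 were not called against DMSO.

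Most of 23 genes of mitosis fell. Of these, 15 fell with the combination, 20 with FoxOi and 23 with Loperamide, against 23.2%, 20.3% and 15.8% of all genes tested, with median log2 fold changes of -0.37, -0.59 and -1.02. Cdc20, which activates the anaphase-promoting complex, fell by 1.22 ± 0.15 with the combination and by 1.44 ± 0.15 with FoxOi, and the spindle protein gene Tpx2 fell by 1.11 ± 0.09 with Loperamide. Ccna2, the cyclin of S and G2 phase, fell by 0.60 ± 0.11 with FoxOi and by 1.19 ± 0.11 with Loperamide. Under FoxOi, where 20 of 23 mitosis genes fell, 4 of the 51 replication genes did. With the replicate block 22 of the 23 and 16 of the 51 were lower, against 27.1% of all genes. Leaving out 1 library moved the count of the 51 to between 1 and 10. The difference between the lists was not tested.

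Many of the replication genes differed between library numbers with the same sign in every group. Comparing number 3 with number 1 within each group, 17 of the 51 genes were lower and 14 higher in all 4 groups, or 60.8% with 1 sign throughout, against 49.1% of all genes tested. Ccne2 was higher in number 3 by 0.94 on average on the log2 scale (0.94 in FoxOi_Loperamide, 0.91 in FoxOi, 0.74 in Loperamide and 1.16 in DMSO), Rpa1 by 0.56, Pola1 by 0.35 and Rrm1 by 0.31. Orc6 was lower in number 3 by 0.45 and Dut by 0.35. In the labels each number has 1 code that all groups share, and its meaning is not stated.

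**Figure D5:**
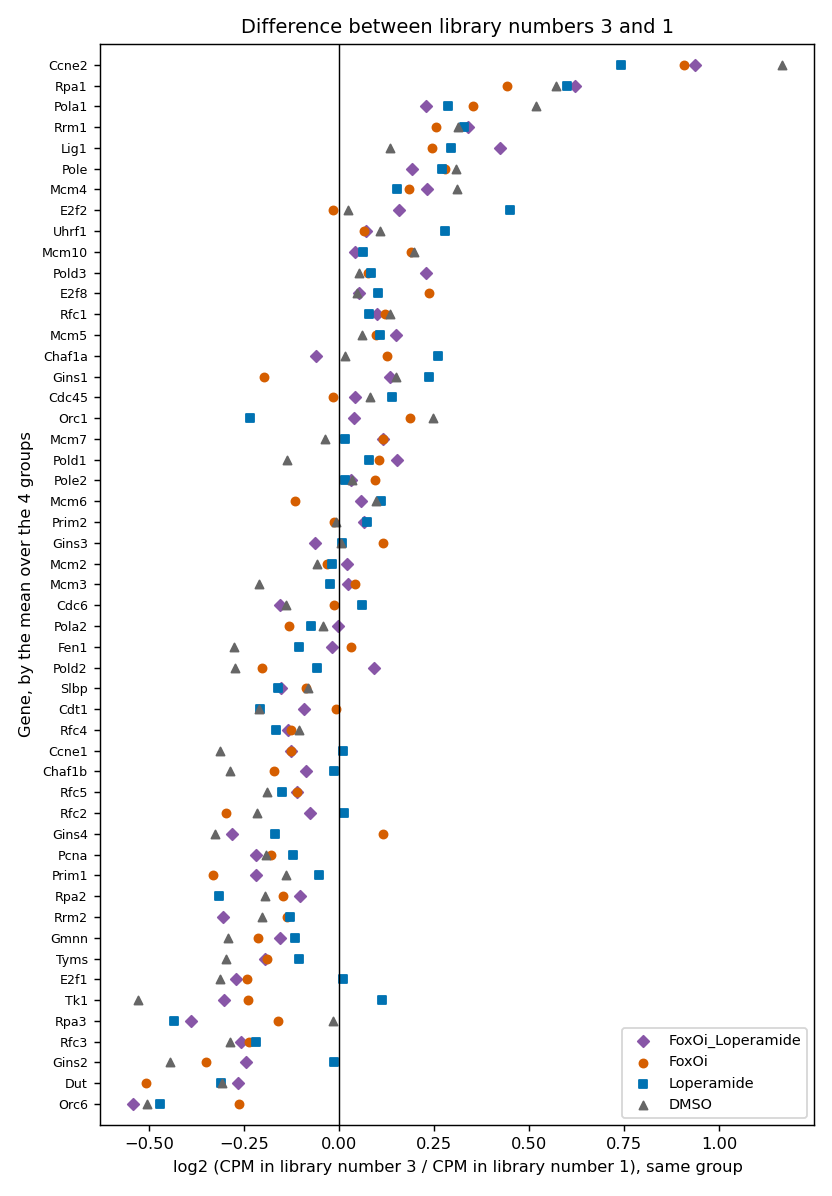
Log2 ratio of CPM in library number 3 to that in library number 1, for the 51 genes in each of the 4 groups. Of the 51 genes, 31 have the same sign in all 4 groups, and Ccne2 and Rpa1 stand highest in each of them.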

How the data were processed

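Polyadenylated RNA was sequenced as 50-base single reads from a stranded kit, per the labels' protocols. STAR 2.7.5a, Picard 2.19.2, DESeq2 and the mouse genome GRCm38 (mm10) are named in the submitters' processing notes. How reads were assigned to genes, strand setting included, is not given in the sources used here. Raw whole-number counts per gene were deposited. The FPKM values deposited by the authors are counts over gene length and a factor per library, which lay within 0.226% of the DESeq2 size factor over 11650 genes. Counts were filtered with filterByExpr in edgeR 4.0.16 under R 4.3.3 (minimum count 10, minimum total 15), leaving 16808 of 55487 genes, and scaled by TMM. A quasi-likelihood model with the 4 groups was fitted to all 12 libraries, and p-values were adjusted by Benjamini-Hochberg over all genes tested. SE was taken as the absolute log2 fold change over the root of F. The fit was first tested on simulated counts with known changes. CPM values use TMM-scaled library sizes. The members and lists were chosen with earlier results of these data known.

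Values are given for all members by role, in each comparison for Mcm2, Pcna, Rrm2, Ccne1, Ccne2 and E2f1, for the members of a role with the smallest adjusted p, for those that go against most called members of their role and for those called in the interaction. Other genes of the pathway are given by list, with the smallest adjusted p. Some genes that this rule picks are not reported here. Libraries with the same replicate number carry the same code in their labels. Their deviations from the group means correlated at r of 0.115 to 0.507 in 5 of the 6 pairs of groups, every one above 0.1, so the numbers were taken to pair the samples there. Between FoxOi_Loperamide and Loperamide the lowest r was 0.0915. Replicate libraries differed beyond counting noise (chi-square per degree of freedom 5.34 to 33.6). Alternatives were other scalings, no filter, DESeq2 1.42.0, limma 3.58.1 on log2(FPKM + 1), stricter thresholds, fits to the compared groups alone, the replicate block and leaving out each library.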

Additional observations from a re-analysis of the deposited data

Results flagged for a closer look

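The interaction, the log2 effect of loperamide in the presence of the FoxO1 inhibitor minus its effect in its absence, passed an adjusted p of 0.05 in edgeR's quasi-likelihood test for 4 of the 51 genes. These were Tk1 at 1.11, Tyms at 0.69, Mcm10 at 0.60 and Pold2 at 0.52, each above 0 within all 3 replicate numbers. The 4 genes were called from these same libraries, so that agreement is no separate support. Rfc2, at 0.02 and not called, was also above 0 within all 3. For the interaction the pairing did not pass the check in every pair of groups. Tk1 alone of the 4 kept its call whichever library was left out. It had 58.8, 58.0 and 46.9 FPKM in FoxOi_Loperamide, against 36.4, 32.7 and 30.6 FPKM in FoxOi, and 26.2, 36.5 and 28.3 FPKM in Loperamide, against 44.7, 44.4 and 31.4 FPKM in DMSO libraries.

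Among the further genes of the pathway with the smallest adjusted p, the interaction passed the same threshold for Dbf4, the activator of the Cdc7 kinase, at 0.53, the histone chaperone gene Asf1b at 0.68 and the cyclin gene Ccna2 at 1.31. It was below 0 for Recql4 at -0.66 and for Pole4, a small subunit of polymerase epsilon, at -0.52, both within all 3 replicate numbers. Recql4 and Pole4 were likewise called from the same libraries, so the agreement between numbers is no separate support. All 23 genes of mitosis were called above 0 in the interaction, against 3.66% of all genes tested, with a median of 1.27. The 3 mitosis genes with the smallest adjusted p were Ube2c at 1.75, Nusap1 at 1.39 and Tpx2 at 1.20.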

How the results depend on the processing

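Higher and lower counts of the 51 genes shifted with scaling, threshold and the replicate block. Shares of all genes were counted only for the fit reported above and for the replicate block. Scaled by total counts, the counts became 2 lower with FoxOi, 5 higher with Loperamide, 17 higher and 4 lower with the combination, 3 lower for the combination against FoxOi and 2 for the interaction. Without the filter on low counts they were 0 higher with Loperamide, 6 higher for the combination against FoxOi and 11 for the interaction. DESeq2 gave 2 higher with Loperamide and 8 for the interaction, and limma gave 2 higher with Loperamide. The replicate block gave 10 higher and 16 lower with FoxOi, 5 higher with Loperamide and 17 lower with the combination. It gave 8 higher and 11 lower for the combination against FoxOi, and 8 lower for FoxOi against Loperamide. For the combination against Loperamide it gave 28 higher, against 25.8% of all genes, and 5 lower, against 27.8%. For the interaction it gave 20, against 11.4% of all genes. For the last 2 comparisons the pairing did not pass the check in every pair. No called member lost its call under the block. At an adjusted p under 0.01 the counts were 1 lower with FoxOi, 0 higher with Loperamide, 7 lower with the combination, 3 lower for the combination against FoxOi, 11 higher against Loperamide, 2 lower for FoxOi against Loperamide and 1 for the interaction. With at least 1.5-fold change they were 0 lower with FoxOi, 0 higher and 8 lower with Loperamide, 4 higher and 2 lower with the combination, 1 higher and 2 lower for the combination against FoxOi, 8 higher and 1 lower against Loperamide, and 8 higher and 2 lower for FoxOi against Loperamide. Leaving out 1 library gave 6 to 7 higher and 1 to 10 lower with FoxOi, 0 to 2 and 13 to 22 with Loperamide, 8 to 10 and 7 to 13 with the combination, 2 to 4 and 3 to 5 for the combination against FoxOi, 12 to 22 and 2 to 3 against Loperamide, 18 to 22 and 2 to 5 for FoxOi against Loperamide, and 1 to 8 and 0 for the interaction. Over the 51 genes and all comparisons, 90 of 357 values turned sign in at least 1 of these fits, 35 of them under total counts, each at most 0.27 in size as reported, and 0 of the 90 were called in either fit. Among genes with values given for the comparison, under total counts E2f1 (0.082) and Mcm2 (0.072) turned with FoxOi, Mcm2 (0.15) and Rpa2 (0.0092) with the combination, and Mcm2 (0.015) for the combination against Loperamide. Mcm2 turned in the interaction without the filter (0.020) and in limma (0.0034). Leaving out 1 library, the log2 fold change with FoxOi ran from -0.071 to 0.098 for Ccne1, -0.14 to 0.040 for E2f1 and -0.0072 to 0.16 for Pcna, and that of Mcm2 with Loperamide from -0.057 to 0.086. With the combination it ran from -0.44 to 0.11 for Ccne2, -0.048 to 0.11 for E2f1, -0.058 to 0.036 for Mcm2 and -0.081 to 0.084 for Pcna. Against FoxOi it ran from -0.0029 to 0.13 for Chaf1b, -0.0008 to 0.16 for E2f1, -0.0043 to 0.052 for Mcm2 and -0.13 to 0.033 for Rrm1. Against Loperamide it ran from -0.066 to 0.38 for Ccne2 and -0.097 to 0.045 for Mcm2. For FoxOi against Loperamide Mcm2 ran from -0.12 to 0.024, and in the interaction Ccne2 ran from -0.51 to 0.043 and Mcm2 from -0.065 to 0.078. The causes were not tested. With 3 libraries a group, exact tests of single ratios cannot go below p = 0.1. These tests compared means of the logged ratio for Rrm2 to Rrm1, and of the unlogged ratio for Pole2 to Pole and Chaf1b to Chaf1a. None of them used the replicate numbers.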
